A study of Mus musculus with 23 samples.

Results

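Foxp3 and 4 transcription factors of the Ikaros family, Ikzf1 (Ikaros), Ikzf2 (Helios), Ikzf3 (Aiolos) and Ikzf4 (Eos), were followed across sorted mouse CD4+ T cells. They were chosen by name, with earlier results of these data known. Every probe set that the array annotation gave to one of these 5 genes alone was used. This gave 12 probe sets of 45037 tested, 1 for Foxp3, 2 for Ikzf1 and 3 each for Ikzf2, Ikzf3 and Ikzf4, and 5 genes of 18193 measured. The brightest probe set of a gene, by its mean over all arrays, stands for the gene below unless another is named. Levels are log2 expression values, and a difference of 1 is a 2-fold change.

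The study sorted CD4+ T cells by 2 surface proteins. CD25 (Il2ra) makes the interleukin-2 receptor bind its cytokine with high affinity, and CD49f (Itga6) is an integrin chain that pairs with others to bind laminin. Total RNA of each sort was hybridised to 1 oligonucleotide array. CD25+CD49f+ cells had 4 arrays, CD25+CD49f- cells had 5, CD25-CD49f+ cells had 7 and CD25-CD49f- cells had 7, each labelled a biological replicate from female mice. Strain, age, tissue and any pooling of mice are not stated in the labels, and no genotype or treatment is given for any group.

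Foxp3 is a forkhead transcription factor encoded on the X chromosome and is the defining factor of regulatory T cells (Treg cells), which restrain other T cells and which carry much CD25. Ikaros family factors are zinc finger proteins that bind DNA as dimers with each other and recruit repressor complexes. Ikaros acts throughout lymphocyte development, Helios is expressed in many Treg cells and helps to keep their identity, Aiolos is raised in activated and effector T cells, and Eos binds Foxp3 in mouse Treg cells and takes part in its gene silencing.

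The promoters of 2 of the 5 genes were in the RefSeq promoter table (build GRCm38.p6), each with 2 windows, and the first listed window of each gene is shown, because both products bind DNA and these are the only members with a promoter in that table. Windows run from 250 bases before to 50 bases after the start of the gene. Ikzf2, Ikzf3 and Ikzf4 had no entry there. The Foxp3 window lies at chrX:7579426-7579725 and the Ikzf1 window at chr11:11685675-11685974, both on the plus strand. Capitals mark matches to TATAAA and, on the minus strand, to TGGGAA, the core that Ikaros factors bind.
Foxp3: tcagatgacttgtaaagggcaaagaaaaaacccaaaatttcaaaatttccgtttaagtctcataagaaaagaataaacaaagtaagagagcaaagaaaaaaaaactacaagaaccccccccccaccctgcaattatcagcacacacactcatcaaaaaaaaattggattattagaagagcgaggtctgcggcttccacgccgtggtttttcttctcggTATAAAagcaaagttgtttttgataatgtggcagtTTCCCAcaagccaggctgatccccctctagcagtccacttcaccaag
Ikzf1: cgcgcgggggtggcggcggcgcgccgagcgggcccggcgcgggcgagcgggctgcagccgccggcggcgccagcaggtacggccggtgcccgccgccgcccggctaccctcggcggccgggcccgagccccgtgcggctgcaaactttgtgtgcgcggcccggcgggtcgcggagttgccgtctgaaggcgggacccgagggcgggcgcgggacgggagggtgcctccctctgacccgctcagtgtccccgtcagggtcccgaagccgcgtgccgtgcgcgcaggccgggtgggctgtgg
The Foxp3 window held TATAAA starting 32 bases before the gene start (position -32), a match found in 13.6% of the 32851 promoter windows of the table. It held the reverse complement of TGGGAA at position 4 after the start, a match in either direction that 25.6% of all windows share. The Ikzf1 window held none of these letters, and neither window held the forkhead letters GTAAACA, which 3.65% of windows hold on either strand. The Ikzf1 window had 52 CG pairs, more than 99.4% of all windows, against 6 in the Foxp3 window and a median of 7. In the second windows, which are not shown, this order turned round, with 2 CG pairs for Ikzf1 and 8 for Foxp3. These matches are a description of the letters alone, since binding was not measured.

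Before the comparisons, the arrays were checked against their labels. The listed CD4 T cell transcripts were high on every array, with Cd3d between 11.56 and 12.18. Cd4 had the lowest group means of the list, from 9.12 in CD25+CD49f+ to 9.68 in CD25-CD49f- cells, with arrays between 9.06 and 10.09. Although all mice were labelled female, 12 arrays held Xist alone, 10 held Y-linked transcripts alone and 1, CD25+CD49f- replicate 5, held both. Each group held Xist arrays and Y-linked arrays, so the results of the 12 probe sets are also given for each kind where a call changed. By their correlation with the other arrays of their group 4 arrays stood apart, CD25+CD49f- replicate 5, CD25-CD49f+ replicate 1 and CD25-CD49f- replicates 1 and 7. Xist and Y-linked probe sets read up to 6.499 on arrays where the transcript was taken as absent. Background differs between probe sets, and the size of a difference that involves a mean under that level is limited by it to an unknown extent.

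Foxp3 was high in both CD25+ groups, lower in CD25-CD49f+ cells and lowest in CD25-CD49f- cells, where it lay in the range of absent transcripts. The 4 CD25+CD49f+ arrays read 9.80, 9.61, 10.09 and 9.88. The 5 CD25+CD49f- arrays read 9.81, 9.79, 9.90, 9.67 and 9.77. In CD25-CD49f+ cells the lowest of 7 arrays read 7.80, the median 8.36 and the highest 8.46, and in CD25-CD49f- cells these were 4.21, 4.77 and 5.11. The CD25+ groups overlapped, every CD25-CD49f+ array lay below every CD25+ array, and every CD25-CD49f- array lay below all the others.

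Group means of Foxp3, with their SD, were 9.85 ± 0.20 in CD25+CD49f+ (n = 4), 9.79 ± 0.08 in CD25+CD49f- (n = 5), 8.25 ± 0.22 in CD25-CD49f+ (n = 7) and 4.74 ± 0.32 in CD25-CD49f- (n = 7). The 4 group means came from a single limma fit to all 23 arrays, with Benjamini-Hochberg adjustment over 45037 probe sets. A probe set was called at an adjusted p under 0.05. These p-values weigh a difference against the spread between samples within groups. Any pooling of mice is not stated, so how far this is a spread between mice is not known. Foxp3 was higher in CD25-CD49f+ than CD25-CD49f- cells by 3.51 ± 0.12 (SE, 11.41-fold, adjusted p = 1.41e-15). It was higher again in CD25+CD49f+ than CD25-CD49f+ cells, by 1.60 ± 0.14 (3.03-fold, adjusted p = 4.12e-08). The difference between CD25+CD49f+ and CD25+CD49f- cells was 0.06 ± 0.15 and was not called (adjusted p = 1.00), with a 95% interval of -0.26 to 0.37. Because sorted populations were measured in bulk, a smaller share of Foxp3 cells and less Foxp3 RNA per cell cannot be told apart.

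**Figure D1:**
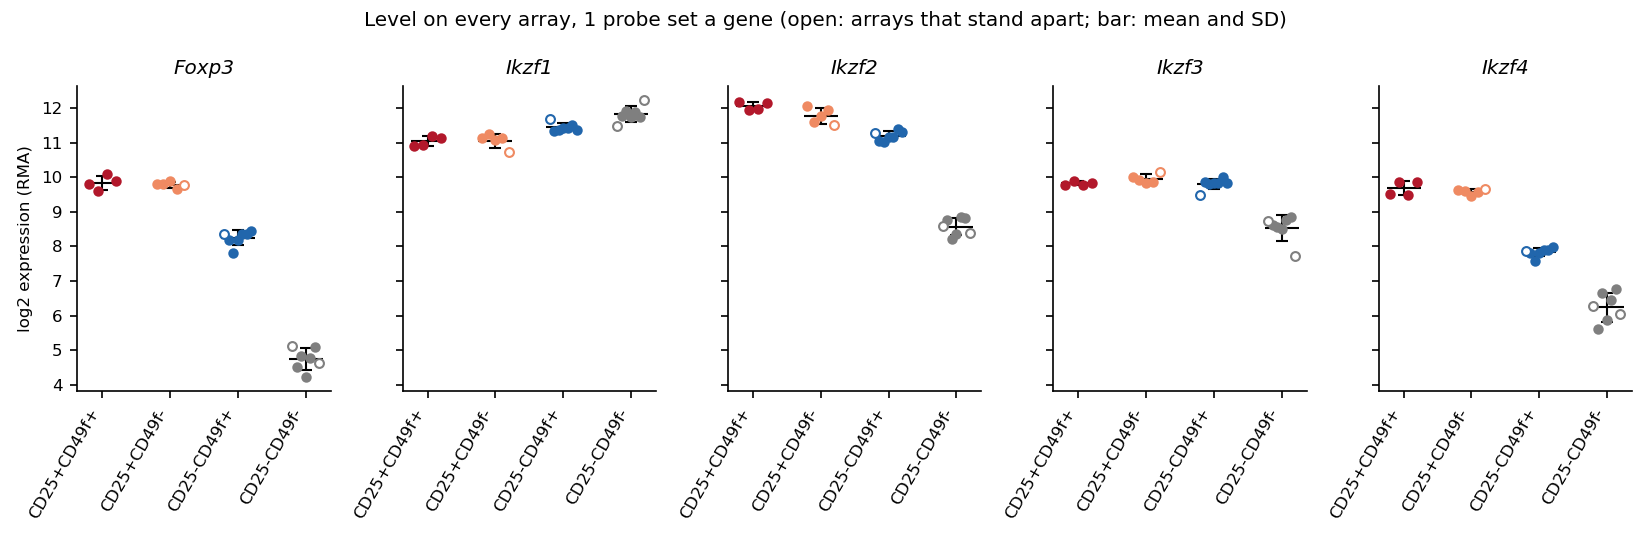
Levels of the 5 genes on each array, by group, on the log2 scale, with 1 probe set a gene. Points are arrays, open points are the 4 arrays that stood apart, and bars are the group mean and SD. Foxp3 means are 9.85 in CD25+CD49f+, 9.79 in CD25+CD49f-, 8.25 in CD25-CD49f+ and 4.74 in CD25-CD49f- cells, and Ikzf1 runs the other way, between 11.04 and 11.83.

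Ikzf2, which codes Helios, had the same order of groups as Foxp3. The 4 CD25+CD49f+ arrays read 12.18, 11.96, 11.97 and 12.14. The 5 CD25+CD49f- arrays read 12.07, 11.61, 11.76, 11.96 and 11.52. In CD25-CD49f+ cells the lowest, median and highest of 7 arrays were 11.02, 11.17 and 11.40, and in CD25-CD49f- cells 8.22, 8.59 and 8.85. The CD25+ groups overlapped, while CD25-CD49f+ and CD25-CD49f- arrays each lay apart from every other group.

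The Ikzf2 means, with their SD, were 12.06 ± 0.11 in CD25+CD49f+ (n = 4), 11.78 ± 0.23 in CD25+CD49f- (n = 5), 11.20 ± 0.14 in CD25-CD49f+ (n = 7) and 8.57 ± 0.25 in CD25-CD49f- (n = 7). Helios transcript was thus higher in CD25-CD49f+ than CD25-CD49f- cells by 2.63 ± 0.10 (6.20-fold, limma adjusted p = 1.49e-14). It was higher in CD25+CD49f+ than CD25-CD49f+ cells by 0.86 ± 0.12 (adjusted p = 4.81e-05) and in CD25+CD49f- than CD25-CD49f+ cells by 0.58 ± 0.11 (adjusted p = 0.00152). The last call was lost on the Xist arrays (0.71, adjusted p = 0.0817) and on the Y-linked ones (0.56, adjusted p = 0.180), and the one before it on the Y-linked ones (0.76, adjusted p = 0.0630). Between CD25+CD49f+ and CD25+CD49f- cells the difference of 0.28 ± 0.13 was not called (adjusted p = 0.826).

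The other 2 probe sets of Ikzf2 gave the same order at lower signals. Probe set 1456956_at averaged 10.10 in CD25+CD49f+ cells, 9.44 in CD25+CD49f- cells, 8.81 in CD25-CD49f+ and 5.90 in CD25-CD49f- cells, and 1421643_at averaged 5.76 in CD25+CD49f+ cells, 5.31 in CD25+CD49f- cells, 4.98 in CD25-CD49f+ and 4.34 in CD25-CD49f- cells. For 1456956_at the difference of CD25+CD49f+ from CD25-CD49f+ cells was 1.28 ± 0.31 (limma adjusted p = 0.0159), with overlapping arrays. That call was lost without CD25+CD49f+ replicate 1 (1.10, adjusted p = 0.109), replicate 3 (1.27, adjusted p = 0.0525) or replicate 4 (1.25, adjusted p = 0.0601), on Xist arrays (1.33, adjusted p = 0.480) and on Y-linked arrays (1.19, adjusted p = 0.0834). Neither probe set was called for CD25+CD49f- against CD25-CD49f+ cells, but 1421643_at was called there without CD25+CD49f- replicate 5 (0.47, adjusted p = 0.0490). All 3 probe sets of Helios were called in CD25-CD49f+ against CD25-CD49f- cells, with 1421643_at uncalled on the Y-linked arrays (0.61, adjusted p = 0.236). On those arrays 1421643_at also lost its limma call for CD25+CD49f+ against CD25-CD49f+ cells (0.82, adjusted p = 0.373). The same held for CD25+CD49f- against CD25-CD49f- cells (0.997, adjusted p = 0.0761).

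Ikzf4, which codes Eos, was highest in the CD25+ groups and lowest in CD25-CD49f- cells. The 4 CD25+CD49f+ arrays read 9.53, 9.88, 9.50 and 9.87. The 5 CD25+CD49f- arrays read 9.64, 9.61, 9.46, 9.57 and 9.66. In CD25-CD49f+ cells the lowest, median and highest of 7 arrays were 7.59, 7.87 and 7.99, and in CD25-CD49f- cells 5.60, 6.29 and 6.77. As for Foxp3, only the CD25+ groups overlapped each other.

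The Ikzf4 means, with their SD, were 9.70 ± 0.21 in CD25+CD49f+ (n = 4), 9.59 ± 0.08 in CD25+CD49f- (n = 5), 7.83 ± 0.13 in CD25-CD49f+ (n = 7) and 6.24 ± 0.42 in CD25-CD49f- (n = 7). Eos transcript was higher in CD25+CD49f+ than CD25-CD49f+ cells by 1.86 ± 0.16 (3.63-fold, limma adjusted p = 1.94e-08) and in CD25+CD49f- than CD25-CD49f+ cells by 1.75 ± 0.15 (adjusted p = 6.54e-09). It was higher in CD25-CD49f+ than CD25-CD49f- cells by 1.60 ± 0.13 (adjusted p = 3.56e-09), where the mean of CD25-CD49f- cells lay in the range of absent transcripts. Between CD25+CD49f+ and CD25+CD49f- cells the difference was 0.11 ± 0.17 (adjusted p = 1.00), with a 95% interval of -0.24 to 0.45.

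The probe sets of Ikzf4 disagreed. Probe set 1438274_at averaged 9.48 in CD25+CD49f+ cells, 9.38 in CD25+CD49f- cells, 7.74 in CD25-CD49f+ and 6.48 in CD25-CD49f- cells, with the same calls as the brightest one. Probe set 1460664_at stayed between group means of 6.57 and 6.69 and was called in none of the comparisons by limma. The mean of the 3 probe sets was higher in CD25-CD49f+ than CD25-CD49f- cells by 0.96, against 1.60 for the brightest alone, and its interaction, described further on, was -0.87 in place of -1.49. It differed by 1.23 in CD25+CD49f+ and by 1.14 in CD25+CD49f- against CD25-CD49f+ cells, and by 2.20 in CD25+CD49f+ and 2.10 in CD25+CD49f- against CD25-CD49f- cells, with every call kept.

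Ikzf3, which codes Aiolos, was higher in each of the other 3 groups than CD25-CD49f- cells. The 4 CD25+CD49f+ arrays read 9.77, 9.91, 9.79 and 9.84. The 5 CD25+CD49f- arrays read 9.999, 9.94, 9.83, 9.85 and 10.16. In CD25-CD49f+ cells the lowest, median and highest of 7 arrays were 9.50, 9.84 and 10.01, and in CD25-CD49f- cells 7.73, 8.61 and 8.87. The first 3 groups overlapped one another, and every CD25-CD49f- array lay below them.

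Aiolos transcript, with the SD, averaged 9.83 ± 0.06 in CD25+CD49f+ (n = 4), 9.96 ± 0.13 in CD25+CD49f- (n = 5), 9.81 ± 0.15 in CD25-CD49f+ (n = 7) and 8.54 ± 0.38 in CD25-CD49f- (n = 7). It was higher in CD25-CD49f+ than CD25-CD49f- cells by 1.27 ± 0.12 (2.41-fold, limma adjusted p = 4.23e-08) and in CD25+CD49f- than CD25-CD49f- cells by 1.42 ± 0.13 (adjusted p = 2.73e-08). The difference of CD25+CD49f+ from CD25-CD49f+ cells was 0.02 ± 0.14 (adjusted p = 0.999), with a 95% interval of -0.28 to 0.32. The mean of the 3 Ikzf3 probe sets gave 0.52 in place of 1.27 for the CD25- groups and 0.66 in place of 1.42 for CD25+CD49f- against CD25-CD49f- cells, with both calls kept. The other 2 Ikzf3 probe sets were dim, with group means of 5.25 to 5.67 for 1441088_at and of 3.73 to 3.99 for 1453378_at. Of these, 1441088_at was higher in CD25-CD49f+ than CD25-CD49f- cells by 0.38 ± 0.11 (adjusted p = 0.0256), and in CD25+CD49f- than CD25-CD49f- cells by 0.42 ± 0.12 (adjusted p = 0.0242). The first call was lost without CD25-CD49f+ replicate 4 (adjusted p = 0.0585) or CD25-CD49f- replicates 5 (adjusted p = 0.0610) or 6 (adjusted p = 0.0564). The other was lost without CD25+CD49f- replicates 1 (adjusted p = 0.0657) or 4 (adjusted p = 0.0549) or CD25-CD49f- replicate 5 (adjusted p = 0.0533), and both were lost on the Xist and on the Y-linked arrays alone. Probe set 1453378_at was not called in any comparison.

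Ikzf1, which codes Ikaros, ran in the opposite direction and over a smaller range. The 4 CD25+CD49f+ arrays read 10.89, 10.95, 11.19 and 11.14. The 5 CD25+CD49f- arrays read 11.14, 11.26, 11.07, 11.13 and 10.72. In CD25-CD49f+ cells the lowest, median and highest of 7 arrays were 11.34, 11.42 and 11.70, and in CD25-CD49f- cells 11.50, 11.77 and 12.24. Both CD25+ groups lay below both CD25- groups, and the groups within CD25+ and within CD25- cells overlapped.

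Ikaros transcript, with the SD, averaged 11.04 ± 0.14 in CD25+CD49f+ (n = 4), 11.06 ± 0.20 in CD25+CD49f- (n = 5), 11.45 ± 0.12 in CD25-CD49f+ (n = 7) and 11.83 ± 0.23 in CD25-CD49f- (n = 7). It was lower in CD25+CD49f- than CD25-CD49f- cells, with a difference of -0.76 ± 0.11 (0.589-fold, limma adjusted p = 1.18e-05). The difference of CD25-CD49f+ from CD25-CD49f- cells was -0.38 ± 0.10 (adjusted p = 0.0106), and that of CD25+CD49f- from CD25-CD49f+ cells -0.38 ± 0.11 (adjusted p = 0.0325). Neither call held under every alternative. The first was lost on Xist arrays (-0.30, adjusted p = 0.233), on Y-linked arrays (-0.48, adjusted p = 0.101) and for the mean of both probe sets (-0.22, adjusted p = 0.194). The second was lost without CD25+CD49f- replicate 5 (-0.30, adjusted p = 0.136), without replicate 3 of that group (-0.38, adjusted p = 0.0687) and without CD25-CD49f+ replicates 1, 4 or 6 (adjusted p = 0.0673, 0.0530 and 0.0618), on Xist (-0.26) and Y-linked (-0.33) arrays, and for the mean of both probe sets (-0.33, adjusted p = 0.0821).

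For CD25+CD49f+ against CD25-CD49f+ cells the Ikzf1 difference of -0.41 ± 0.11 missed the threshold (limma adjusted p = 0.0502). It stayed uncalled in 26 of 36 alternatives, with a limma adjusted p of up to 0.996, and was called in the other 10. It passed without the 4 arrays that stood apart (-0.36, adjusted p = 0.00137). It also passed without CD25+CD49f- replicate 5 alone (adjusted p = 0.0249) or replicate 2 alone (adjusted p = 0.0495), and without CD25-CD49f- replicate 1 (adjusted p = 0.0306) or replicate 7 (adjusted p = 0.0151). With all arrays kept it passed under quantile normalization (adjusted p = 0.0466), with array weights (adjusted p = 7.47e-04), among the brighter probe sets (adjusted p = 0.0366), with 1 probe set a gene (adjusted p = 0.0308) and in a fit of the compared groups alone (adjusted p = 0.0126). The dim Ikzf1 probe set 1421303_at, with group means between 5.55 and 5.90, was not called in any comparison.

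**Figure D2:**
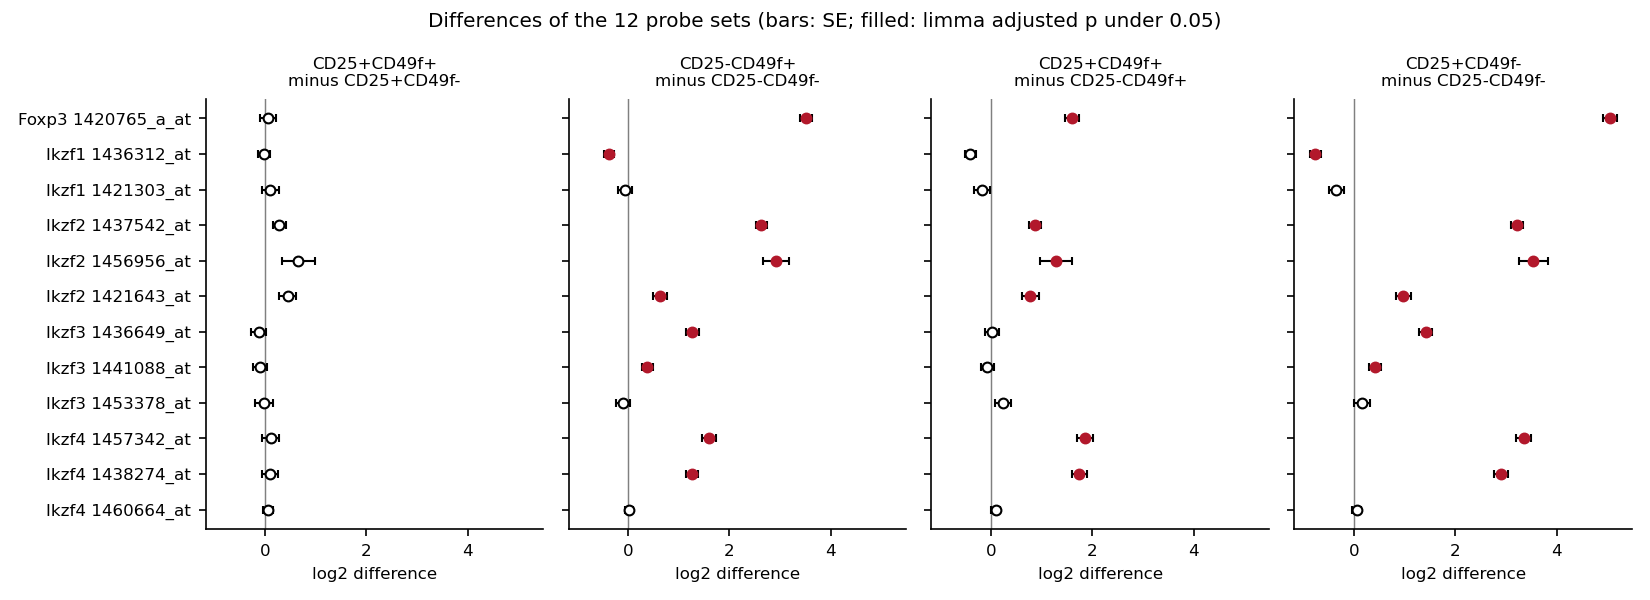
Log2 differences of the 12 probe sets in 4 comparisons, with bars for the SE and filled points for a limma adjusted p under 0.05. No probe set is filled for CD25+CD49f+ against CD25+CD49f- cells, and Foxp3 has the largest difference of the 12, at 5.05, in CD25+CD49f- against CD25-CD49f- cells.

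For CD25+CD49f+ against CD25+CD49f- cells limma called none of the 12 probe sets, against 1.11% of all. At an unadjusted p under 0.05 there were 2 of the 12, both of Ikzf2 (1437542_at and 1421643_at), and 2585 of all 45037. In CD25-CD49f+ against CD25-CD49f- cells 8 were higher, against 5.45% of all probe sets, and 1 was lower, against 4.38%. The median difference was 0.95 over the 12 probe sets. With 1 probe set a gene it was 1.60 over the 5 members, against -0.02 over the 18193 genes. In CD25+CD49f- against CD25-CD49f- cells 8 were higher, against 6.07%, and 1 lower, against 3.89%. In CD25+CD49f+ against CD25-CD49f- cells 7 were higher, against 5.07%, and 1 lower, against 4.22%. For CD25+CD49f+ against CD25-CD49f+ cells 6 were higher, against 1.58%, and none lower, against 1.66%. For CD25+CD49f- against CD25-CD49f+ cells 4 were higher, against 3.02%, and 1 lower, against 2.12%. The lower probe set was that of Ikzf1 each time. Several comparisons share arrays, so these counts are not independent of one another.

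The difference between CD49f+ and CD49f- cells was then compared between CD25+ and CD25- cells. This used the interaction, the difference of CD25+CD49f+ from CD25+CD49f- cells minus the difference of CD25-CD49f+ from CD25-CD49f- cells. It was negative and called for 6 of the 12 probe sets, against 2.52% of all probe sets. For Foxp3 it was -3.46 ± 0.19 (limma adjusted p = 1.18e-11), made up of 0.06 in CD25+ cells and 3.51 in CD25- cells. For Ikzf2 it was -2.35 ± 0.17 (adjusted p = 8.13e-10), made up of 0.28 in CD25+ and 2.63 in CD25- cells. For Ikzf3 it was -1.40 ± 0.20 (adjusted p = 4.89e-05), made up of -0.13 in CD25+ and 1.27 in CD25- cells, and it was -0.60 for the mean of the 3 probe sets. For Ikzf4 it was -1.49 ± 0.21 (adjusted p = 6.49e-05), made up of 0.11 in CD25+ and 1.60 in CD25- cells. The second Ikzf2 probe set, 1456956_at, gave -2.26 ± 0.42 (adjusted p = 0.00151), and the second Ikzf4 probe set, 1438274_at, gave -1.16 ± 0.20 (adjusted p = 7.33e-04). The third Ikzf2 probe set, 1421643_at, gave -0.19 ± 0.22 and was not called (limma adjusted p = 0.853), made up of 0.45 in CD25+ and 0.64 in CD25- cells. It was called without the arrays that stood apart (-0.51, adjusted p = 0.0487) and with array weights (-0.50, adjusted p = 0.0477). For the mean of the 3 Ikzf2 probe sets the interaction was -1.60.

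Among the Y-linked arrays alone the interactions of Ikzf3 (-1.52, adjusted p = 0.161) and Ikzf4 (-1.62, adjusted p = 0.142) were not called by limma. Nor was that of 1438274_at (-1.37, adjusted p = 0.110), and 3 of 12 probe sets were called. Among the Xist arrays 1456956_at (-2.25, adjusted p = 0.337) and 1438274_at (-0.86, adjusted p = 0.116) were not called. The means of Foxp3 and Ikzf4 in CD25-CD49f- cells lay in the range of absent transcripts, although the highest Ikzf4 array read 6.77, whereas those of Ikzf2 (8.57) and Ikzf3 (8.54) lay above it. The CD25-CD49f- means of 1456956_at (5.90), 1421643_at (4.34) and 1438274_at (6.48) lay in that range too. For Ikzf1 the interaction was 0.36 ± 0.16 and was not called (adjusted p = 0.339).

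The genes differed in how far CD25-CD49f+ cells lay along the way to CD25+CD49f+ cells, as a percentage of the log2 difference between CD25+CD49f+ and CD25-CD49f- cells. Foxp3 lay at 68.7% of that difference, and leaving out each array in turn gave 67.7% to 70.2%. Ikzf2 lay at 75.3% (74.4% to 76.2%), with 69.5% and 44.9% for its other probe sets. Aiolos lay at 98.5% (96.0% to 102.6%). Eos lay at 46.2% (44.5% to 47.6%) and at 41.9% by 1438274_at, and Ikaros at 48.5% (43.5% to 53.8%). These positions are a description without a test, and probe sets that differ in background or saturation can compress a difference by different amounts.

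**Figure D3:**
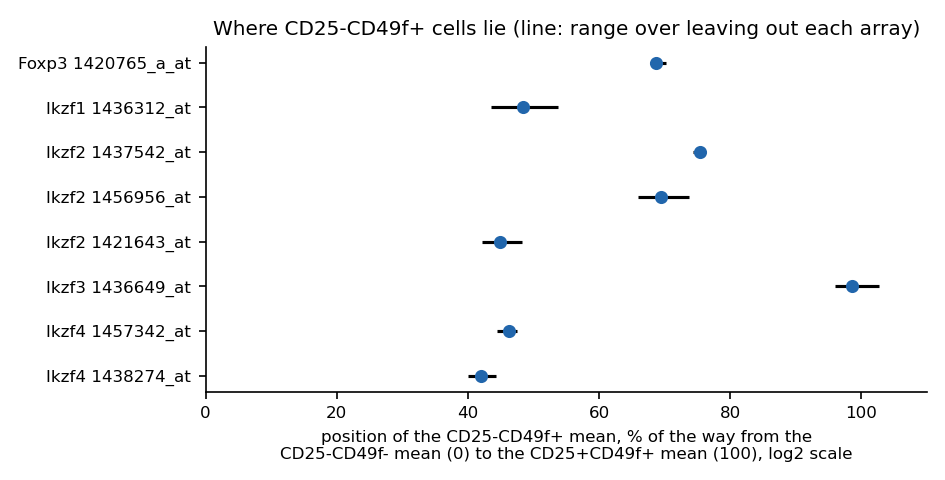
Position of the CD25-CD49f+ mean between the CD25+CD49f+ mean (right end) and the CD25-CD49f- mean (0), in percent of the log2 difference between these end groups, for the 8 probe sets called between them. Lines span the values with each array left out. Aiolos sits at 98.5% and Eos at 46.2% and 41.9%.

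Within a group, the members were compared across arrays in the CD25-CD49f+ and CD25-CD49f- groups, which had 7 arrays each, over 10 pairs of genes in each group. The CD25+ groups had under 6 arrays and were not tested. In CD25-CD49f+ cells, arrays with more Foxp3 had more Ikzf4, with a Pearson r of 0.984 (exact permutation p = 9.92e-04, two-sided, adjusted p = 0.0198 over the 20 pairs, n = 7) and a Spearman rho of 0.929 (exact permutation p = 0.00675, adjusted p = 0.0450). Without the 2 arrays farthest from the median of Foxp3 r was 0.927, and without the array that stood apart it was 0.992. Of the 18191 other genes, none had an r with Foxp3 at least this high, a description with no test. Ikzf4 probe set 1438274_at gave r = 0.934, and 1460664_at gave 0.297.

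The kinds of array moved with these 2 genes. In CD25-CD49f+ cells Foxp3 read 8.36 to 8.46 on the 3 Y-linked arrays and 7.80 to 8.37 on the 4 Xist arrays, and Ikzf4 read 7.88 to 7.99 on the Y-linked and 7.59 to 7.87 on the Xist arrays. With 3 and 4 arrays, no correlation within a kind was computed, and the part of this split in the correlation was not tested. The relation covers Foxp3 levels from 7.80 to 8.46 alone.

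Foxp3 and Ikzf2 in CD25-CD49f+ cells had an r of 0.790 (exact permutation p = 0.0185, adjusted p = 0.151) and a rho of 0.929 (exact permutation p = 0.00675, adjusted p = 0.0450), and r was 0.781 without the 2 farthest arrays. The other Ikzf2 probe sets gave r of 0.151 and -0.07 with Foxp3, so this relation rested on a single probe set. Helios and Eos gave r = 0.781 (exact permutation p = 0.0226, adjusted p = 0.151) and rho = 0.929 (exact permutation p = 0.00675, adjusted p = 0.0450).

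In CD25-CD49f- cells Foxp3 and Ikzf4 had an r of 0.740 (exact permutation p = 0.0567, adjusted p = 0.227, n = 7) and a rho of 0.75 (exact permutation p = 0.0663, adjusted p = 0.265), with 686 other genes at least as high in r and -0.31 for the second Ikzf4 probe set. Ikzf1 and Ikzf3 in these cells had an r of -0.808 (exact permutation p = 0.0474, adjusted p = 0.227) and of -0.10 without the 2 arrays farthest from the median of Ikzf1. Of the 20 pairs, 4 had an exact p under 0.05 in Pearson's r and 1 passed after adjustment.

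**Figure D4:**
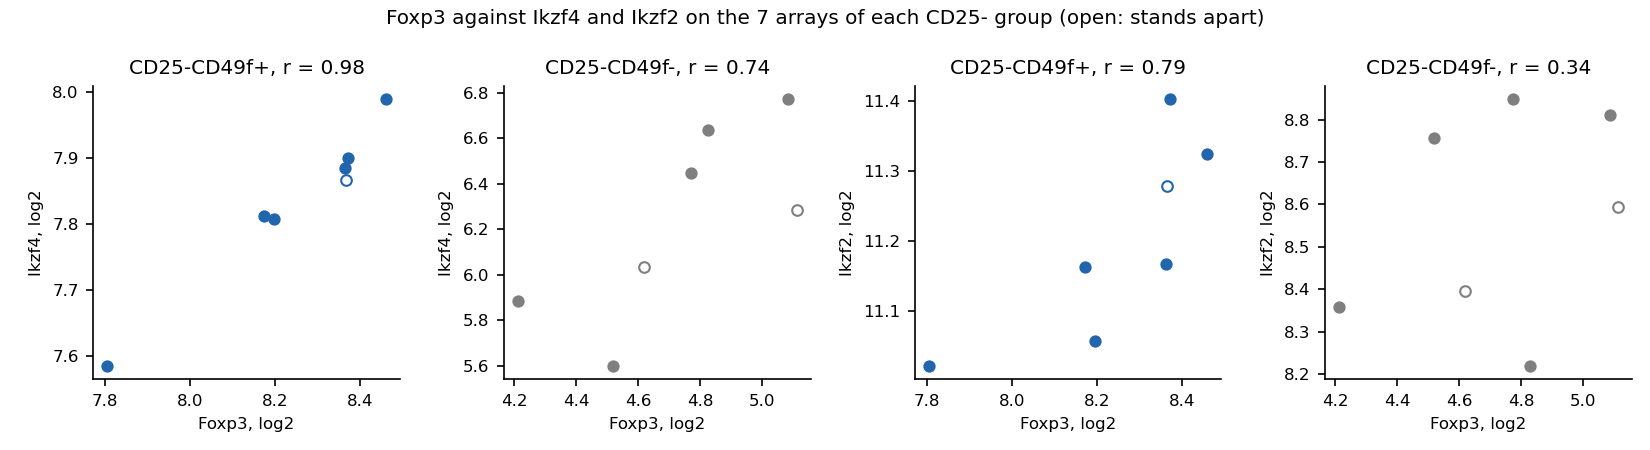
Foxp3 (horizontal, log2) against Ikzf4 and Ikzf2 (vertical, log2) on the 7 arrays of CD25-CD49f+ cells and the 7 of CD25-CD49f- cells, each point an array and open points arrays that stood apart. The axes differ between panels. The CD25-CD49f+ arrays lie along a line for Ikzf4, with r = 0.98.

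Genes whose pattern over the 23 arrays was nearest to a member were found from the mean absolute difference of log2 levels, each gene first centred on its own mean. Nearest to Foxp3 were Ctla4 (0.43), a coinhibitory receptor, Dusp4 (0.44), a phosphatase of MAP kinases, Rgs1 (0.48), a regulator of G protein signalling, Itgae (0.59), the integrin chain CD103, and Ikzf2 (0.63). Dusp4 averaged 9.52 in CD25+CD49f+ cells, 9.41 in CD25+CD49f- cells, 8.42 in CD25-CD49f+ and 5.29 in CD25-CD49f- cells. Nearest to Helios were Tiam1 (0.23), an activator of Rac, Capg (0.28), an actin capping protein, and Nrn1 (0.31), neuritin. Nearest to Eos were Socs2 (0.21), a feedback inhibitor of cytokine signalling, Prnp (0.22), the prion protein, and Cd83 (0.27), a surface protein of activated cells. Nearest to Aiolos were Rilpl2 (0.13), Sh3bgrl (0.13) and Serpinb6b (0.14). Socs2 averaged 8.85 in CD25+CD49f+ cells, 8.50 in CD25+CD49f- cells, 6.998 in CD25-CD49f+ and 5.51 in CD25-CD49f- cells. These distances are descriptions over 23 arrays that share the 4 groups. Ikzf1 spanned 0.79 between its group means, under the 1 log2 unit set for this ranking.

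Among the members, Helios lay nearer to Eos (0.50) than to Foxp3 (0.63), Eos lay at 0.76 from Foxp3, and Aiolos at 0.73 from Helios. Ikaros was the farthest from Foxp3, at 2.12.

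Genes that Foxp3 is known to raise in Treg cells were then counted, with 16 of 18 listed genes measured. This list and those below were written with earlier results of these data known, so their counts are descriptions and not independent tests. In CD25-CD49f+ against CD25-CD49f- cells all 16 measured genes were higher, against 7.5% of all genes called higher, and their median difference was 1.34. Ctla4 was at 10.31 ± 0.16 in CD25-CD49f+ and 6.80 ± 0.35 in CD25-CD49f- cells (SD, n = 7 in each group), a difference of 3.51 ± 0.14 (limma adjusted p = 1.53e-14). Itgae differed by 2.36 ± 0.17, Capg by 2.26 ± 0.13 and Nt5e, the ecto-enzyme CD73, by 2.01 ± 0.12. In CD25+CD49f- against CD25-CD49f- cells 16 of 16 were higher, against 8.78% of all genes, with a median of 2.59. Il2ra differed there by 4.27 ± 0.12, but it codes the CD25 used for the sort. Ctla4 differed by 4.08 ± 0.15, Klrg1, an inhibitory lectin-like receptor, by 3.36 ± 0.10 and Gpr83, a G protein-coupled receptor of Treg cells, by 3.35 ± 0.10. Gpr83 had the smallest difference of the list between the CD25- groups and was named for that after its values were seen. It was at 8.004 ± 0.26 in CD25-CD49f+ and 7.63 ± 0.11 in CD25-CD49f- cells, a difference of 0.37 ± 0.09 (adjusted p = 0.00864).

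Between CD25+CD49f+ and CD25+CD49f- cells, where Foxp3 and the Ikaros factors were not called, 1 of the 16 genes was higher, against 0.286% of all genes, and 3 were lower, against 1.37%. Without the 4 arrays that stood apart 2 were higher and 5 lower, while the count over all 45037 probe sets rose from 500 to 804. Nt5e was higher by 0.95 ± 0.16 (limma adjusted p = 7.32e-04), at 9.92 ± 0.04 in CD25+CD49f+ (n = 4) and 8.97 ± 0.20 in CD25+CD49f- (n = 5). Klrg1 was lower (-1.95 ± 0.12, adjusted p = 3.19e-11), as were Itgae (-1.21 ± 0.21, adjusted p = 0.00154) and Prdm1, which codes the repressor Blimp-1 (-0.95 ± 0.18, adjusted p = 0.00341). In CD25+CD49f+ against CD25-CD49f+ cells 10 of 16 were higher, against 2.45% of all genes, and none was lower, against 2.57%. Without the 4 arrays that stood apart 13 were higher and 2 lower, while the count over all 45037 probe sets rose from 1459 to 3465. The 10 included Il2ra (2.76 ± 0.12), whose difference was set by the sort on CD25. They also included Gpr83 (2.55 ± 0.11), Tnfrsf9, the costimulatory receptor 4-1BB (1.44 ± 0.18), and Tnfrsf4, the receptor OX40 (1.30 ± 0.14).

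Genes that Foxp3 is known to lower, of which 11 of 12 listed were measured, divided in CD25-CD49f+ cells. Against CD25-CD49f- cells 6 were lower, against 4.94% of all genes, and 4 were higher, against 7.5%. The lower ones included Igfbp4, an insulin-like growth factor binding protein (-1.36 ± 0.12), Bach2, a repressor of effector genes (-1.17 ± 0.10), and Lef1, a factor of naive T cells (-0.89 ± 0.09). Ifng, which codes interferon gamma, was at 8.64 ± 0.38 in CD25-CD49f+ and 5.13 ± 0.55 in CD25-CD49f- cells (SD, n = 7 in each group), a difference of 3.51 ± 0.22 (limma adjusted p = 2.64e-11). The other higher genes, given here because the count is small, were Il2, which codes interleukin-2 (1.22 ± 0.16, adjusted p = 3.46e-06), Ptpn22, a phosphatase that dampens T cell receptor signals (0.49 ± 0.11, adjusted p = 0.00312), and Il4, which codes interleukin-4 (0.29 ± 0.09, adjusted p = 0.0301). The CD25-CD49f- means of Ifng and Il2 (5.12) lay in the range of absent transcripts, as did the CD25-CD49f+ mean of Il2 (6.34).

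In CD25+CD49f- against CD25-CD49f- cells 6 of the 11 were lower and 1, Ifng (2.50 ± 0.24), was higher, against 4.36% of all genes called lower and 8.78% higher. Dapl1, a transcript of naive T cells, was at 7.38 ± 0.22 in CD25+CD49f- (n = 5) and 10.55 ± 0.17 in CD25-CD49f- (n = 7), a difference of -3.17 ± 0.15 (limma adjusted p = 9.39e-14). In CD25+CD49f+ against CD25-CD49f+ cells 9 of 11 were lower, against 2.57% of all genes, and 1, Bach2 (0.69 ± 0.11), was higher, against 2.45%. The lower genes included Il2 (-1.61 ± 0.18), Pde3b, a cyclic nucleotide phosphodiesterase that Foxp3 represses (-2.44 ± 0.31), and Dapl1 (-2.74 ± 0.16). In CD25+CD49f+ against CD25+CD49f- cells 3 were lower, against 1.37% of all genes, namely Il7r, the interleukin-7 receptor alpha chain (-1.04 ± 0.19, adjusted p = 0.00284), Igfbp4 (-0.77 ± 0.15, adjusted p = 0.00516) and Satb1, a chromatin organiser of T cells (-0.53 ± 0.13, adjusted p = 0.0491). Without the 4 arrays that stood apart 5 were lower, while the count over all 45037 probe sets rose from 500 to 804.

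**Figure D5:**
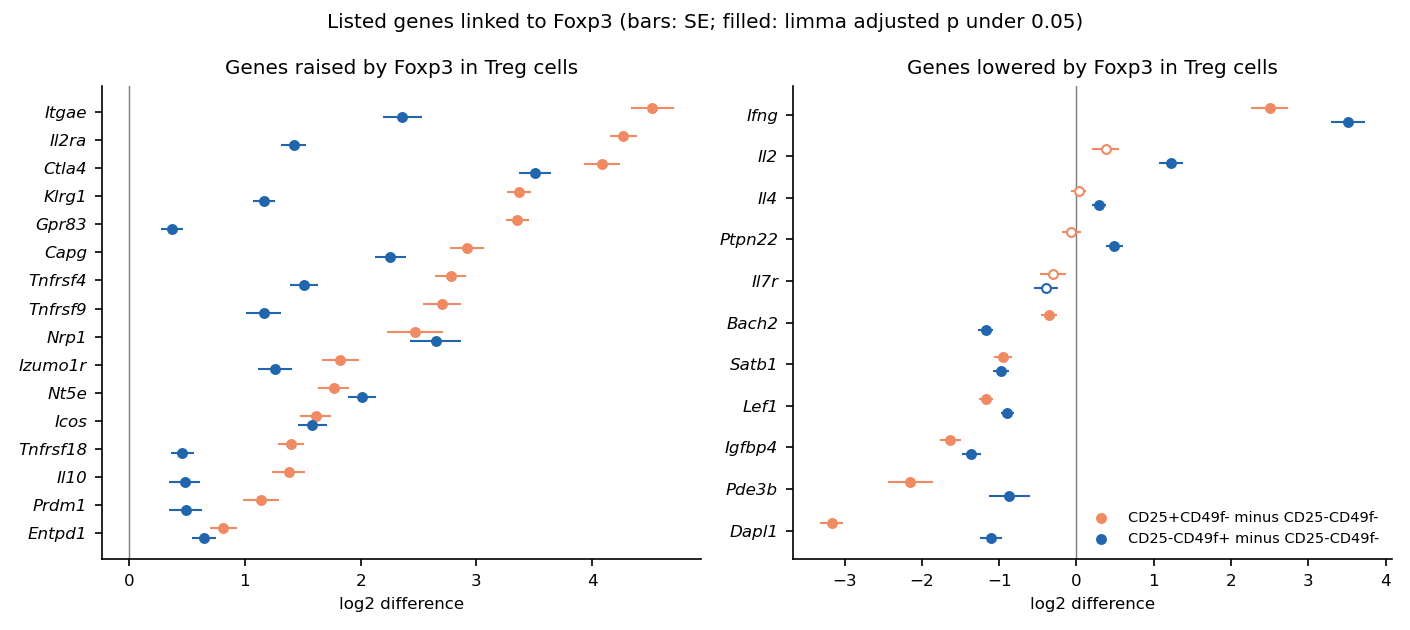
Log2 differences (horizontal) of the listed genes raised (left) and lowered (right) by Foxp3 in CD25+CD49f- and in CD25-CD49f+ cells, each against CD25-CD49f- cells, with bars for the SE and filled points for a limma adjusted p under 0.05. All 16 genes on the left lie above 0 in both comparisons, and Ifng lies farthest above 0 on the right, at 2.50 in CD25+CD49f- and 3.51 in CD25-CD49f+ cells. Both comparisons use the same CD25-CD49f- arrays.

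Factors that act on the Foxp3 locus were measured for 26 of 26 listed genes. In CD25-CD49f+ against CD25-CD49f- cells 8 were higher, against 7.5% of all genes, and 3 lower, against 4.94%. Uhrf1, which maintains DNA methylation with Dnmt1, was at 9.43 ± 0.15 in CD25-CD49f+ and 6.99 ± 0.29 in CD25-CD49f- cells (SD, n = 7 in each group), a difference of 2.44 ± 0.12 (limma adjusted p = 6.08e-13). Ezh2, the Polycomb methyltransferase, differed by 1.39 ± 0.11 and Gata3, a T helper 2 and Treg factor, by 0.94 ± 0.09. Bach2 was among the lower ones (-1.17 ± 0.10). All 6 listed genes of dividing cells were higher in the same comparison, and their part in these differences was not tested. In CD25+CD49f- against CD25-CD49f- cells 10 were higher, against 8.78%, and 2 lower, against 4.36%. The higher ones included Uhrf1 (1.46 ± 0.13), Gata3 (1.04 ± 0.10) and the T cell receptor-induced nuclear receptors Nr4a1 (1.66 ± 0.15) and Nr4a3 (1.38 ± 0.11). In CD25+CD49f+ against CD25+CD49f- cells 2 were lower, against 1.37% of all genes, and none was higher. They were Satb1 and Runx3, a partner of Cbfb, with a difference of -0.80 ± 0.18 (adjusted p = 0.0192).

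Protein partners of Foxp3, a list that shares genes with the preceding one, were measured for 17 of 19. In CD25-CD49f+ against CD25-CD49f- cells 4 were higher, against 7.5% of all genes, and 3 lower, against 4.94%, with Rora, a nuclear receptor of T helper 17 and tissue Treg cells, at 1.52 ± 0.10 (limma adjusted p = 3.53e-11). Gata3 was also higher (0.94 ± 0.09), and Lef1 (-0.89 ± 0.09) and Satb1 (-0.97 ± 0.10) were among the lower ones. Rora was lower in CD25+CD49f+ than CD25+CD49f- cells (-0.51 ± 0.12, adjusted p = 0.0315). Hdac9, a histone deacetylase, was higher in CD25+CD49f+ than CD25-CD49f+ cells (1.31 ± 0.23, adjusted p = 5.84e-04), with means of 5.34 in CD25+CD49f+ and 4.03 in CD25-CD49f+ cells, both in the range of absent transcripts.

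Subunits of the repressor complexes that Ikaros factors use were measured for 17 of 17 listed genes. In CD25+CD49f- against CD25-CD49f- cells 3 were higher, against 8.78% of all genes, and none was lower. Hdac1, a histone deacetylase of the NuRD and Sin3 complexes, was at 11.29 ± 0.08 in CD25+CD49f- (n = 5) and 10.66 ± 0.11 in CD25-CD49f- (n = 7), a difference of 0.63 ± 0.06 (limma adjusted p = 1.02e-07). Hdac1 was also higher in CD25+CD49f+ than CD25-CD49f+ cells (0.42 ± 0.07, adjusted p = 3.23e-04). Rbbp7 (0.26 ± 0.06, adjusted p = 0.00792) and Rbbp4 (0.32 ± 0.10, adjusted p = 0.0385), histone-binding subunits, were higher in CD25-CD49f+ than CD25-CD49f- cells, against 7.5% of all genes. None of the 17 was called in CD25+CD49f+ against CD25+CD49f- cells.

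Relatives of the members were measured for 6 of 6 listed genes, and 1 was called lower in CD25-CD49f+ against CD25-CD49f- cells, against 4.94% of all genes, and 1 higher in CD25+CD49f- against CD25-CD49f- cells, against 8.78%. Foxp1, a forkhead factor of naive T cells, was the lower one (-0.43 ± 0.11, limma adjusted p = 0.0101). Foxp4 was higher in CD25+CD49f- than CD25-CD49f- cells (0.42 ± 0.11, adjusted p = 0.00978) and than CD25-CD49f+ cells (0.41 ± 0.11, adjusted p = 0.0190). Ikzf5 (Pegasus), the remaining family member, was called in no comparison, with a difference of 0.27 ± 0.25 in CD25-CD49f+ against CD25-CD49f- cells (adjusted p = 0.639).

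Other cell properties moved with the groups. The mean of 6 listed genes of dividing cells had a median over arrays of 8.26 in CD25+CD49f+ cells (7.99 to 8.63), 7.40 in CD25+CD49f- cells (7.01 to 7.67), 9.37 in CD25-CD49f+ cells (9.06 to 9.58) and 6.67 in CD25-CD49f- cells (6.29 to 7.04). All 6 were lower in CD25+CD49f+ than CD25-CD49f+ cells, against 2.57% of all genes. In CD25+CD49f+ against CD25+CD49f- cells 5 of 6 were higher, against 0.286%. The mean of 10 myeloid and dendritic genes had a median of 6.46 in CD25+CD49f+ cells, 6.60 in CD25+CD49f- cells, 6.63 in CD25-CD49f+ and 7.26 in CD25-CD49f- cells, where it ran from 6.36 to 7.65. Of the 10, 4 were lower in CD25-CD49f+ than CD25-CD49f- cells, against 4.94% of all genes, and none was higher, against 7.5%. The dendritic cell gene Itgax averaged 6.66 in CD25-CD49f+ and 8.58 in CD25-CD49f- cells, whereas Lyz2 of the same list averaged 9.28 and 9.22. Fcer1g, also of this list, averaged 8.20 in CD25+CD49f- and 7.29 in CD25-CD49f- cells. For 4 NK cell genes the median was 6.40 in CD25+CD49f+ cells, 6.68 in CD25+CD49f- cells, 6.75 in CD25-CD49f+ and 7.38 in CD25-CD49f- cells. Of these 4 genes, 1 was higher and 2 were lower in CD25-CD49f+ than CD25-CD49f- cells, against 7.5% and 4.94% of all genes. Klrd1 averaged 7.65 in CD25-CD49f+ and 9.09 in CD25-CD49f- cells, and Eomes 7.66 in CD25-CD49f+ and 7.11 in CD25-CD49f- cells. Group medians were 5.78 to 6.12 for the B cell list, in which Cd22 averaged 7.64 to 8.31, and 5.72 to 5.99 for the CD8 T cell list. They were 7.97 to 8.12 for the plasma cell list, with Jchain at group means of 10.81 to 11.47 and Xbp1, which T cells also express, at 10.29 to 11.13, and no gene of these 3 lists was called between the CD25- groups. For CD25+CD49f- against CD25-CD49f- cells 2 NK cell genes were higher and 2 lower, and of the 4 plasma cell genes 1 was higher and 1 lower. Of the 10 myeloid and dendritic genes, 1 was higher and 3 were lower there. Over all genes 8.78% were called higher and 4.36% lower in this comparison. Of 9 CD4 T cell genes 3 were lower in it and none was higher. In CD25+CD49f+ against CD25-CD49f+ cells 2 of the 9 were lower, against 2.57% of all genes, and none was higher, against 2.45%. In CD25-CD49f+ against CD25-CD49f- cells 1 was higher, against 7.5%, and none was lower, against 4.94%. The part of dividing cells or of other cell types in the differences of Foxp3 and the Ikaros factors was not tested.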

How the data were processed

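Expression was measured on 23 Affymetrix arrays, 1 per sorted sample. The authors deposited log2 values made with RMA, per the submitters' processing notes (version: not given in the sources used here). RMA normalizes across arrays, so a difference is relative to the bulk of probe sets. The labels gave the groups.

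After leaving out 64 control probe sets, limma 3.58.1 (R 4.3.3) fitted 4 group means to 45037 probe sets, with empirical Bayes moderation and Benjamini-Hochberg adjustment over all of them in each comparison. Figures used matplotlib 3.10.9. An annotation table named 1 gene for 34958 probe sets, several for 932 and none for 9211. The number of arrays limits precision. An array stood apart if its median correlation within its group was over 3 scaled median absolute deviations low. Xist counted as present at a log2 level of 8, and Y-linked transcripts at 6. The fit was tested on simulated data.

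Named list genes were mostly taken from the 4 called genes of a list with the smallest adjusted p in a comparison. Not all of these are named, and some other genes were added. Nearest genes were ranked for members whose group means spanned over 1 log2 unit. Members and lists were chosen with earlier results of these data known. Alternatives were left-out arrays, replicate blocks, array kinds, scalings, weights, moderation, probe set choice and the compared groups alone.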

Additional observations from a re-analysis of the deposited data

Results flagged for a closer look

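The difference between CD49f+ and CD49f- cells was not the same in CD25+ and CD25- cells, by the limma interaction, for Foxp3 (-3.46), for 2 probe sets of Ikzf2 (-2.35 for 1437542_at and -2.26 for 1456956_at), for Ikzf3 (-1.40 for 1436649_at) and for 2 probe sets of Ikzf4 (-1.49 for 1457342_at and -1.16 for 1438274_at).

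A single array lay far from the others of its group in 5 cases of 48 groups of values tested, and chance alone gives about 1 in 20. CD25-CD49f- replicate 7 read 6.60 for Ikzf1 probe set 1421303_at, the highest of its group, and 7.73 for Ikzf3 probe set 1436649_at, the lowest. CD25-CD49f+ replicate 1 read 9.50 for 1436649_at, the lowest, and 4.10 for Ikzf3 probe set 1453378_at, the highest. CD25+CD49f- replicate 5 read 9.71 for Ikzf4 probe set 1438274_at, the highest. These 3 arrays are among the 4 that stood apart.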

How the results depend on the processing

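The counts of the 12 probe sets called moved by over 1.5 times in 4 cases. On the Xist arrays 3 were called for CD25+CD49f- against CD25-CD49f+ cells. On the Y-linked arrays 3 were called in each of CD25+CD49f+ against CD25-CD49f+, CD25+CD49f- against CD25-CD49f+ and the interaction. These subsets hold fewer arrays, and the counts over all probe sets fell too. Leaving out 1 array gave 0 called for CD25+CD49f+ against CD25+CD49f-, 8 to 9 for CD25-CD49f+ against CD25-CD49f-, 5 to 7 for CD25+CD49f+ against CD25-CD49f+, 8 to 9 for CD25+CD49f- and for CD25+CD49f+ against CD25-CD49f-, 4 to 5 for CD25+CD49f- against CD25-CD49f+, and 6 for the interaction. Over the other alternatives 26 single values lost the call, 11 gained it and 991 did neither, among them 28 uncalled ones that changed sign. The 991 include correlations without the 2 arrays farthest from the median and without the arrays that stood apart. No adjusted p was computed for these correlations, so they could not gain or lose a call. No called value changed sign.

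Without the 4 arrays that stood apart, an alternative chosen after seeing the data, the Foxp3-raised genes gave 2 higher and 5 lower for CD25+CD49f+ against CD25+CD49f- cells and 2 lower for CD25+CD49f+ against CD25-CD49f+ cells, and the Foxp3-lowered genes gave 5 lower for CD25+CD49f+ against CD25+CD49f- cells. The counts over all probe sets rose as well in this setting, from 500 to 804 in the first comparison and from 1459 to 3465 in the second. The causes were not tested.

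The background counts over 45037 probe sets also moved by over 1.5 times. For CD25+CD49f+ against CD25+CD49f- cells the count was 500, against 181 on Xist arrays, 135 on Y-linked arrays, 804 without the arrays that stood apart and 979 with array weights. For CD25-CD49f+ against CD25-CD49f- it was 4427, against 2037 (Xist), 1630 (Y-linked) and 6718 (weights). For CD25+CD49f+ against CD25-CD49f+ it was 1459, against 562 (Xist), 320 (Y-linked), 3465 (stood apart) and 4167 (weights). For CD25+CD49f- against CD25-CD49f- it was 4486, against 1889 (Xist) and 1540 (Y-linked). For CD25+CD49f+ against CD25-CD49f- it was 4185, against 1968 on either kind of array, 6701 (stood apart) and 6710 (weights). For CD25+CD49f- against CD25-CD49f+ it was 2315, against 860 (Xist), 551 (Y-linked), 3719 (stood apart) and 4188 (weights), and for the interaction 1408, against 460 (Xist), 313 (Y-linked), 2540 (stood apart) and 3242 (weights).

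Replicate numbers did not pair the samples across all groups, since replicate 2 was a Y-linked array in CD25-CD49f- and an Xist array in CD25-CD49f+ cells. Same-numbered arrays had deviations with a median correlation of 0.06 over 29 pairs, with 12 over 0.1, and 4 of 23 arrays correlated best with their own number. In both CD25+ groups replicates 1 and 2 were Xist arrays and replicates 3 and 4 Y-linked arrays. Between these groups the correlations of replicates 1 to 4 were -0.07, 0.52, 0.19 and 0.05. Pairing within the CD25+ groups alone was not tested. With the replicate block 9 probe sets were called for CD25-CD49f+ against CD25-CD49f-, 6 for CD25+CD49f+ against CD25-CD49f+ and 4 for CD25+CD49f- against CD25-CD49f+ cells, where Ikzf1 was lost (-0.35, adjusted p = 0.124). Where the CD25-CD49f- mean lay in the range of absent transcripts, as for Foxp3 and Ikzf4, background limits the size of differences from CD25-CD49f- cells.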
